A study of Mus musculus with 9 samples.

Results

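Chromatin accessibility of tumor-specific CD8 T cells in the tumor-draining lymph node was compared between day 8 and day 4 after transfer, with 3 peak lists for each day, 6 of the 9 lists of the series. ATAC-seq uses the Tn5 transposase to insert sequencing adapters into open DNA, and a peak is a stretch where insertions pile up above the local background. The cells were P14 cells, CD8 T cells whose transgenic receptor recognises a peptide from the LCMV (lymphocytic choriomeningitis virus) glycoprotein. Naive P14 donor cells, CD44- and GFP+, came from mice with a GFP reporter for TCF-1, the product of Tcf7, and 500000 of them were given to C57BL/6 mice 8 days after B16.F10 melanoma cells expressing that glycoprotein had been placed under the skin. The only difference between the groups is the day of collection, 4 days (TdLN D4) or 8 days (TdLN D8) after transfer. All cells are labelled WT and were sorted as CD45.1+ CD44+ CD8 T cells, 50000 per library. Day of tumor growth therefore moves together with day after transfer. The labels give neither the age of the mice nor whether the lists of a day came from separate animals, so p-values measure only the spread between lists, which may be technical.

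In a lymph node, a naive CD8 T cell that meets its antigen divides and opens or closes many regulatory regions within days. Receptor signals act first through NFAT, AP-1 and IRF4, a factor whose level follows the strength of the signal. Cells that stay memory-like keep TCF-1, the interleukin-7 receptor and lymph node homing receptors, while effector cells turn to T-bet, granzymes and interferon-γ. ATAC-seq of sorted cells reads an average over the cells: fewer cells with an open region and less opening per cell cannot be told apart.

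The lists differed in length, with 19499, 19854 and 22250 peaks on day 4 and 47513, 48085 and 50835 on day 8. Accessibility was therefore compared in a pair of ways, at equal list length and at regions common to all lists. In the first, every list was reduced to its 19499 strongest peaks by q value. In the second, the 15144 regions called in all 6 lists (shared regions) were ranked within each list by fold, the summit pileup over the local background, and the rank was written as a percentile from 0 to 100. A difference in rank is given in percentile points, day 8 minus day 4. Because the fold divides by a local background that also changed, each rank was computed again from the summit pileup alone, in tags, which can be recovered from the deposited values. At shared regions the median summit pileup was 29, 30 and 35 tags on day 4 and 61, 66 and 70 tags on day 8. Calls therefore rest on ranks alone, and tags, which are not scaled for depth, are given as a description.

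On day 8, 1557 shared regions (10.3%) ranked higher and 1808 (11.9%) ranked lower by fold (limma, Benjamini-Hochberg adjusted p at most 0.05). By pileup, 926 (6.12%) ranked higher and 919 (6.07%) lower. Regions called in the same direction by both rankings numbered 408 higher (2.69%) and 391 lower (2.58%), and 16 were called in opposite directions. A rank compares a region with the other regions of its list. Divided by the smallest local background of its list, a scaling chosen after the data were seen, the summit pileup was higher on day 8 at nearly all shared regions: the median ratio of day 8 to day 4 was 2.44, and 52 regions (0.343%) had a ratio below 1, 36 of them among the 391 lower by both rankings. Lower in rank therefore does not mean fewer tags over that background. Without day 8 list 1, 2 or 3, the counts by fold were 800, 679 and 656 higher and 847, 734 and 698 lower. The 3 day 8 percentiles lay above all 3 day 4 percentiles at 17.5% of the shared regions and below them at 23.6%. Lists of the same day were close, with a median standard deviation (SD) of 8.50 points within day 4 and 5.58 points within day 8. Among genes of the T cell lists, loci that rose by both rankings included Irf4, Ifnar2, Tox2 and Rptor, and loci that fell by both included Il7r, Cd69, Cxcr4, Cblb and Jun.

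**Figure D1:**
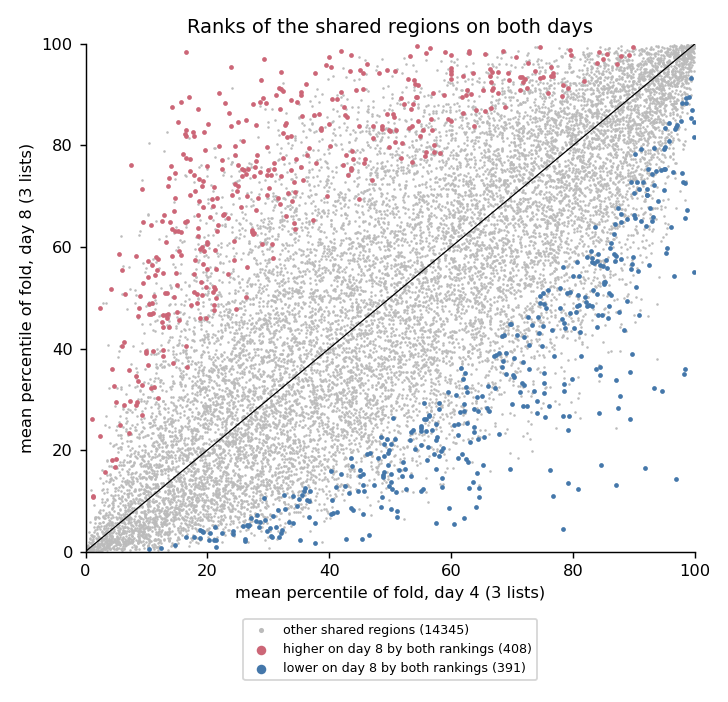
Mean percentile of fold on day 4 (x axis) and on day 8 (y axis) for each of the 15144 shared regions, each a mean of 3 lists. The 408 regions higher by both rankings lie above the diagonal and the 391 lower by both lie below it, with calls at nearly every starting rank.

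Promoters overlapping called regions differed in sequence make-up. Windows from 250 bases before to 50 bases after a transcription start (300 bases) were taken from RefSeq, build GRCm38.p6, where at least 150 bases lay in a shared region. The ETS motif CCGGAAGT, on either strand, was present in 18.0% of 479 promoters whose region ranked higher on day 8, in 6.89% of 1365 whose region ranked lower and in 11.2% of 6600 with neither call, against 5.2% of all 21020 promoter windows. The KLF/SP motif GGGCGGG went the other way, at 44.3%, 61.9% and 52.0%, against 34.2% of all windows. GC content was 59.4% in the higher, 64.3% in the lower and 62.2% in the remaining promoters. Among promoters called by both rankings, the ETS letters were in 18.8% of 128 higher and 7.81% of 192 lower windows, and the KLF/SP letters in 53.9% and 67.2%. These shares describe letters in the window and say nothing of binding. In all, 14 motifs were searched on both strands, and a base could count toward more than 1 of them. The TCF/LEF letters CTTTGA were in 14.4% of the higher and 8.35% of the lower windows (14.4% of all windows). The AP-1 letters TGANTCA were in 4.8% and 3.15% (7.04% of all windows), and the E-box letters CACCTG in 21.7% and 11.7%. Some contrasts turned around among promoters called by both rankings. The CCAAT box was in 35.1% of the higher and 46.7% of the lower windows by fold, and in 36.7% and 29.7% by both. For the NFAT letters TGGAAA the shares were 16.5% and 13.2% by fold, and 14.1% and 19.3% by both.

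The ETS and KLF/SP letters are shown in 6 promoters called by both rankings. They were chosen after their values were seen, from the 10 with the largest change in each direction, so they show the letters and not the shares. Of the other higher promoters, none held the ETS letters, and some, such as Rsph9, Gle1 and Edc3, held the KLF/SP letters. Of the other lower promoters, Ncbp1 held both, and Ncoa7 and Tnfaip8l1 held neither. The first group ranked higher on day 8: Pigt at chr2:164497291-164497590 (+ strand), encoding a subunit of the GPI transamidase, Nsrp1 at chr11:77078388-77078687 (- strand), encoding a splicing regulator, and Nup155 at chr15:8109063-8109362 (+ strand), encoding a nuclear pore protein. The second group ranked lower: Ulk1 at chr5:110810032-110810331 (- strand), the kinase that starts autophagy, Tspan14 at chr14:40966847-40967146 (- strand), a tetraspanin that partners the protease ADAM10, and Ifngr1 at chr10:19591699-19591998 (+ strand), the ligand-binding chain of the interferon-γ receptor. Each is written 5′ to 3′ along the gene's strand. Capitals mark only CCGGAAGT (ETS), GGGCGGG (KLF/SP) and, in Nsrp1, AAGATGGCG (YY1), each on either strand. Letters of the CCAAT box, present for example in Pigt and Ifngr1, are not marked.
Pigt: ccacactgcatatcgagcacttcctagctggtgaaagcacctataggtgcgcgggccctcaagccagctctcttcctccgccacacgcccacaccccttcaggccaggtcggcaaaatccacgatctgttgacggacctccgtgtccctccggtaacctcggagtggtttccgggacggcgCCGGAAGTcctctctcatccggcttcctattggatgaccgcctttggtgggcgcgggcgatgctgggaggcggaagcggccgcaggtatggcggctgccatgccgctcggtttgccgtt
Nsrp1: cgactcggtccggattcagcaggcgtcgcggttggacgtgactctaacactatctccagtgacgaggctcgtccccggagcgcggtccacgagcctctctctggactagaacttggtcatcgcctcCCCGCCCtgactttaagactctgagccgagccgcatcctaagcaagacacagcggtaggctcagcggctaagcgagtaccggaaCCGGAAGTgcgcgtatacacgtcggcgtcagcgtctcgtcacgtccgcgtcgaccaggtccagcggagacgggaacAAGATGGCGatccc
Nup155: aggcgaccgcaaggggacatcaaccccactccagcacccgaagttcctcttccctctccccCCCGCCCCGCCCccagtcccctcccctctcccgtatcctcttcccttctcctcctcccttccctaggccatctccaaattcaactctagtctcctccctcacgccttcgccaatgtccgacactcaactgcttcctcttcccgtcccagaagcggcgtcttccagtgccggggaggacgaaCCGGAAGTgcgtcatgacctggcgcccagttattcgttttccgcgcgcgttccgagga
Ulk1: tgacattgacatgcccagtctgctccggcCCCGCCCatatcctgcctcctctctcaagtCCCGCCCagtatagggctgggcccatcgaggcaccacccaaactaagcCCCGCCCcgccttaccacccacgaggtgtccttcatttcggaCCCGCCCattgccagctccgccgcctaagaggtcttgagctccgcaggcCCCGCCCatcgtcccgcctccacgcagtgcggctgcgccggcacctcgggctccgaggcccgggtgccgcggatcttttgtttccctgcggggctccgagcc
Tspan14: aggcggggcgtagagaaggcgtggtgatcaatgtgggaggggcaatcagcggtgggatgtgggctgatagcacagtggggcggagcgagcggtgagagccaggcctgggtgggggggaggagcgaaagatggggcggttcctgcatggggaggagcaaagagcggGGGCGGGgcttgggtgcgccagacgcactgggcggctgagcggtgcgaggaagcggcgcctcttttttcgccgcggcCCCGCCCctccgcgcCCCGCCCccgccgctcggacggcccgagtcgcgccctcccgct
Ifngr1: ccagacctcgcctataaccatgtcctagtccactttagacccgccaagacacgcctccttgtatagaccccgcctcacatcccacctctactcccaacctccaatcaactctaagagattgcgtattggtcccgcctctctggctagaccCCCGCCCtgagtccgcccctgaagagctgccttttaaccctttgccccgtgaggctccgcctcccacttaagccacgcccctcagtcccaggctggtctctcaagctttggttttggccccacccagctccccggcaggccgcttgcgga

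The region over the Pigt promoter stood at percentiles 11.99, 18.4 and 52.2 in the day 4 lists and 89.9, 90.1 and 84.7 in the day 8 lists. Day 4 list 3 was nearer to day 8 than the other day 4 lists, and the days did not overlap (difference 60.7 ± 10.2 standard error (SE), adjusted p = 0.0056, by pileup 35.8, adjusted p = 0.0126). Over the Ulk1 promoter, which holds the KLF/SP letters at 5 places, the percentiles were 87.5, 85.0 and 62.4 on day 4 and 24.9, 32.3 and 23.0 on day 8. All day 8 lists were below all day 4 lists (difference -51.6 ± 8.61 SE, adjusted p = 0.0056, by pileup -19.5, adjusted p = 0.015). The Ifngr1 promoter region fell by 44.7 points from a day 4 mean of 88.4 to 43.7 (adjusted p = 0.004, by pileup -12.1, adjusted p = 0.0288).

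Irf4, the signal-strength factor, rose by both rankings. A locus is the mean percentile over the shared regions in a gene or nearest to it within 100 kb, tested for the 3059 genes with at least 2 such regions. By fold, 428 loci ranked higher (14%) and 430 lower (14.1%), and by pileup 368 (12%) and 281 (9.19%). Both rankings called 150 loci higher (4.91%) and 111 lower (3.63%). In the list of receptor signal and early activation, 1 of 21 loci was higher (4.76%) and 4 lower (19.05%) by fold, and 2 and 1 by pileup (9.52% and 4.76%). Of its 71 shared regions, both rankings called 1 higher (1.41%) and 2 lower (2.82%), near the shares over all regions. The Irf4 locus, with 2 regions, stood at 8.77, 5.91 and 6.03 in the day 4 lists and 13.7, 21.9 and 20.1 in the day 8 lists. Its difference was 11.7 ± 2.84 points (SE, adjusted p = 0.0136) by fold and 16.1 (adjusted p = 0.00501) by pileup, and the adjusted p by fold was 0.063 and 0.067 without day 8 lists 2 and 3.

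The Irf4 rise came from the region inside the gene, chr13:30760092-30761027, whose mean summit pileup went from 18.7 to 60.0 tags and whose mean percentile went from 5.74 to 25.0 (difference 19.3, adjusted p = 0.017, by pileup 31.5, adjusted p = 0.008). Another region outside the gene, chr13:30742304-30742861, differed by 4.07 points (adjusted p = 0.502, by pileup 0.65, adjusted p = 0.906). Its peak was in all 3 equalised lists of day 4 and none of day 8, and in 3 of 3 full day 8 lists, which are longer. The locus therefore held a rising region beside one that left the equalised lists without a called change in rank. Without day 8 lists 2 and 3 the adjusted p of the rising region was 0.058 and 0.061.

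Batf, an AP-1 family partner of IRF4, rose at one region by both rankings. At chr12:85704662-85706187 the percentiles were 4.47, 4.78 and 15.6 on day 4 and 27.1, 21.1 and 38.6 on day 8. All day 8 values were above all day 4 values (difference 20.7 ± 6.2 SE, adjusted p = 0.038, by pileup 35.5, adjusted p = 0.009). Leaving out any list except day 4 list 3 took the adjusted p by fold to between 0.0567 and 0.115. Over the whole Batf locus the difference was 11.7 by fold (adjusted p = 0.161) and 28.8 by pileup (adjusted p = 0.000443).

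Cd69, an early activation receptor that holds cells in the node by blocking S1PR1, fell at its locus. Its 7 regions averaged 35.2, 40.2 and 35.2 on day 4 and 21.7, 20.2 and 22.9 on day 8. The lists of each day were close together and the days apart (difference -15.3 ± 3.61 SE, adjusted p = 0.0118, by pileup -18.3, adjusted p = 0.00294), with an adjusted p of 0.057 without day 8 list 2. The region inside the gene at chr6:129273523-129274130 carried the largest change by fold, from 56.8, 65.4 and 67.1 to 20.4, 21.4 and 22.6 (difference -41.6, adjusted p = 0.006, by pileup -21.4, adjusted p = 0.006).

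Jun, an AP-1 subunit, fell at its 3-region locus from 39.1, 26.7 and 21.4 to 14.6, 16.9 and 16.0 (difference -13.2 ± 4.42 SE, adjusted p = 0.046, by pileup -10.85, adjusted p = 0.047). Day 4 list 1 stood highest: without it the difference was -8.19. The adjusted p by fold rose to between 0.054 and 0.131 when any list except day 4 list 3 was left out. Cblb, a ubiquitin ligase that restrains receptor signalling, fell over 8 regions from a mean of 55.3 to 40.1 (difference -15.2 ± 4.22 SE, adjusted p = 0.0231, by pileup -10.8, adjusted p = 0.0438). Without day 8 list 1, 2 or 3 its adjusted p was 0.067, 0.056 and 0.103. Rptor, the Raptor subunit of mTORC1, the nutrient-sensing kinase complex, rose from 68.4, 73.6 and 81.0 to 91.7, 94.5 and 92.7 (difference 18.6 ± 3.82 SE, adjusted p = 0.007, by pileup 15.4, adjusted p = 0.008).

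Among cytokine receptors, the interleukin-7 receptor gene Il7r lost rank and its peaks left the equalised lists. Its 2 regions averaged 7.26, 37.8 and 37.9 on day 4 and 5.15, 6.65 and 5.01 on day 8. Day 4 list 1 lay just above the day 8 lists and the other two far above them (difference -22.0 ± 6.71 SE, adjusted p = 0.0324, by pileup -10.7, adjusted p = 0.0376). The adjusted p by fold was 0.082 to 0.106 when any list except day 4 list 1 was left out. Both regions, chr15:9528063-9528497 in the gene and chr15:9533343-9533835 outside it, were in all 3 equalised lists of day 4 and none of day 8. In the full day 8 lists, which are longer, both were called in 3 of 3.

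Ifnar2, a chain of the type I interferon receptor, rose at its 2-region locus from 43.9, 38.6 and 37.8 to 53.4, 58.6 and 53.5 (difference 15.1 ± 4.22 SE, adjusted p = 0.0236, by pileup 13.97, adjusted p = 0.0218). Without day 4 list 3 or any 1 day 8 list its adjusted p by fold was 0.054 to 0.095. Stat5b, a transcription factor activated by interleukin-2 and interleukin-7, rose at the threshold (difference 12.8 ± 4.37 SE, adjusted p = 0.050, by pileup 17.8, adjusted p = 0.006), and its adjusted p was 0.054 to 0.148 when any list except day 4 list 1 was left out. By fold it also missed the threshold with ranks turned into normal scores (0.088), with regions within 50 kb (0.052) and with the list number as a block (0.071). Within Stat5b, the region chr11:100804360-100805179 rose from a mean of 23.3 to 65.7 (adjusted p = 0.008, by pileup 26.6, adjusted p = 0.020) while chr11:100823931-100824847 differed by -22.8 (adjusted p = 0.054).

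Cxcr4, the receptor for the chemokine CXCL12, had the largest fall among the T cell genes called by both rankings. Its 5 regions averaged 40.4, 40.4 and 43.7 on day 4 and 17.9, 14.97 and 13.8 on day 8. No day 8 list reached the day 4 range (difference -26.0 ± 3.54 SE, adjusted p = 0.00162, by pileup -15.5, adjusted p = 0.00722). All 5 regions had a lower mean percentile on day 8 by either ranking. Tox2, a factor related to TOX, rose over 4 regions from 23.6, 31.9 and 34.9 to 47.8, 49.1 and 48.9 (difference 18.5 ± 4.34 SE, adjusted p = 0.0116, by pileup 11.8, adjusted p = 0.0451).

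**Figure D2:**
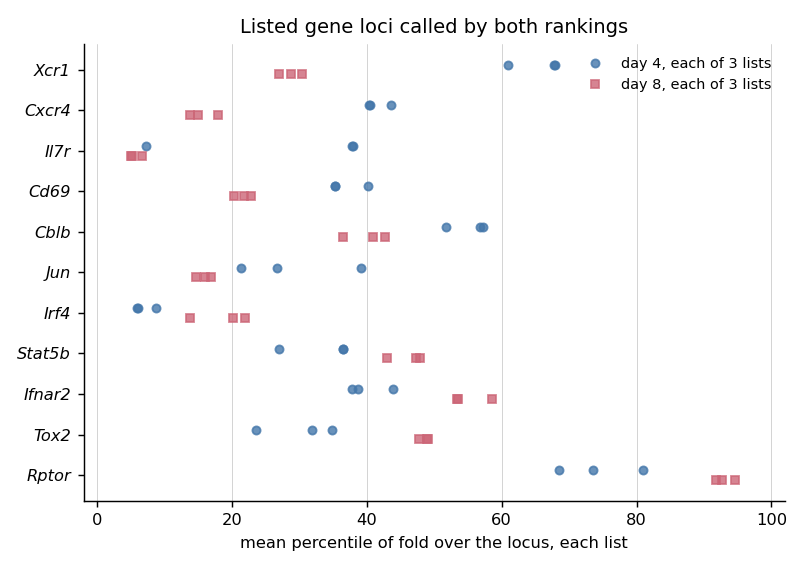
Mean percentile of fold over the locus (x axis) for the 11 loci of the gene lists that both rankings called, with each day 4 list as a circle and each day 8 list as a square. Cxcr4, Il7r, Cd69, Cblb, Jun and Xcr1 lie lower on day 8 and Irf4, Stat5b, Ifnar2, Tox2 and Rptor lie higher; Il7r in day 4 list 1 (7.26) sits next to its day 8 values.

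These 11 loci are those called by both rankings among 141 listed genes that could be tested, a condition added after values were seen. The counts, 5 higher (3.55%) and 6 lower (4.26%), are near the 4.91% and 3.63% over all loci. The fall at Xcr1, a chemokine receptor gene placed in the myeloid and dendritic cell list, is described with the largest falls.

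Of 101 shared regions at 25 of the 28 genes of memory and stemness, both rankings called 2 higher (1.98%) and 3 lower (2.97%). Of 26 at effector function genes, both rankings called 1 each way (3.85%). These shares are near the 2.69% and 2.58% over all shared regions. Id3, a regulator of E proteins kept by memory-prone cells, had a region that rose by both, chr4:136106643-136107364, 36.5 kb from the gene. It stood at 10.1, 35.1 and 44.1 on day 4 and 72.6, 90.04 and 76.4 on day 8. Every day 8 list was above every day 4 list (difference 49.96 ± 9.79 SE, adjusted p = 0.008, by pileup 34.8, adjusted p = 0.009). The region at the gene itself, chr4:136143487-136144227, fell by fold (difference -22.2, adjusted p = 0.041) and not by pileup (9.94, adjusted p = 0.324). Over the whole Id3 locus the difference was 6.04 by fold (adjusted p = 0.378) and 18.8 by pileup (adjusted p = 0.00584). Near Klrg1, a receptor of short-lived effector cells, the region chr6:122291618-122292485 fell from 47.4, 64.7 and 60.2 to 9.43, 22.4 and 17.1. This too was without overlap (difference -41.1 ± 7.94 SE, adjusted p = 0.008, by pileup -38.7, adjusted p = 0.006).

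At Ifng, which encodes interferon-γ, 1 of 5 regions passed by fold. The region chr10:118435269-118435953 stood at 6.17, 3.31 and 8.75 on day 4 and 43.0, 74.4 and 51.7 on day 8. The days were far apart by fold (difference 50.3 ± 8.81 SE, adjusted p = 0.006), while by pileup the difference was 9.15 (adjusted p = 0.0742). Gzmb, encoding the cytotoxic protease granzyme B, gained a peak inside the gene at chr14:56262037-56262546, with 43, 35 and 35 tags in the day 8 lists and no peak in any full day 4 list. Tbx21, encoding T-bet, gained one inside the gene at chr11:97101736-97102244, with 30, 39 and 41 tags on day 8. That region had no peak in a full day 4 list and none in the equalised lists of day 21. Absence from the full day 4 lists, which are shorter, was common: it held for 743 of all 868 gained regions. Il2ra, the α chain of the interleukin-2 receptor, and Bach2, a repressor that favours memory, each gained 1 region, at chr2:11692920-11693513 and chr4:32179678-32180345. Lost regions were 1 each for Cxcr5, Slamf6, Cd69 and Irf4 and 2 for Il7r, so the 36 core genes had 4 gained (2.33%) and 6 lost (3.49%) of 172 equalised regions, against 3.35% and 1.51% of all equalised regions.

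For several core genes the direction depended on the ranking. The Tcf7 locus (6 regions) went from a mean of 27.5 to 18.3 by fold (difference -9.21, adjusted p = 0.0568) and rose by 12.8 points by pileup (adjusted p = 0.0187); without day 4 list 2 the adjusted p by fold was 0.031. Pdcd1, encoding PD-1, differed by 0.251 by fold (adjusted p = 0.97) and fell by 15.7 points by pileup (adjusted p = 0.00935). The region at the Ccr7 gene end, chr11:99154921-99155579, fell by 34.5 points by fold (adjusted p = 0.011) and differed by -1.13 by pileup (adjusted p = 0.778). Regions at Id2 and Cxcr3 fell by 36.6 and 40.8 points by fold (adjusted p = 0.013 and 0.011), against 3.25 and -8.59 by pileup (adjusted p = 0.556 and 0.458). At Entpd1, encoding CD39, a region rose by 23.9 points by fold (adjusted p = 0.004) and differed by -1.59 by pileup (adjusted p = 0.909). Cx3cr1 and Nr4a1 regions passed by pileup alone, with differences of 31.1 and 22.4 by pileup (adjusted p = 0.007 for each) and 20.2 and 13.1 by fold (adjusted p = 0.084 and 0.202), and without day 4 list 2 Cx3cr1 passed by fold (adjusted p = 0.045). Regions near Tcf7, Bach2 and Ctla4 fell by fold by 36.8, 27.5 and 18.3 points (adjusted p = 0.009, 0.036 and 0.036) and differed by 1.36, -4.02 and -1.17 by pileup (adjusted p = 0.827, 0.732 and 0.94). Without single lists the adjusted p by fold rose to between 0.0515 and 0.135 at Bach2 (day 4 list 1 and each day 8 list) and to between 0.0549 and 0.166 at Ctla4 (day 4 lists 1 and 2 and each day 8 list), to 0.057 at Id2 (day 8 list 3) and to 0.052 at Cxcr3 (day 8 list 2). For Bcl6, Tbx21, Zeb2, Havcr2 and Lag3 there was no shared region. At Lef1, Prdm1, Eomes, Tox, Tigit, Prf1, Icos, Ccl5, Gzmb, Slamf6, Cxcr5, Il2ra, Il7r, Pdcd1 and Myc the shared region with the largest difference by fold did not pass by either ranking. Other regions of these genes did by one of them: by fold 1 at Lef1 (-14.9, adjusted p = 0.0441) and 1 at Prdm1 (-14.4, adjusted p = 0.0247), and by pileup 1 each at Pdcd1 (-30.05, adjusted p = 0.0181), Prf1 (-14.1, adjusted p = 0.0181) and Cxcr5 (28.9, adjusted p = 0.0174). For the region with the largest difference, the adjusted p by fold was under 0.05 without 1 list at Lef1 (0.025 without day 4 list 2), Cxcr5 (0.02 without day 4 list 1), Il7r (0.029 without day 4 list 1) and Icos (0.049 without day 8 list 1).

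The gene lists, fixed with earlier results of these data known, are described by counts and medians. Over all shared regions, 10.3% were called higher and 11.9% lower by fold, and 6.12% and 6.07% by pileup. Of the 101 memory and stemness regions, 4 ranked higher (3.96%) and 19 lower (18.8%) by fold, with a median of -3.23 points, and 7 higher (6.93%) and 3 lower (2.97%) by pileup, with a median of 1.65. AP-1 and bZIP factors had 1 higher (2.17%) and 12 lower (26.1%) of 46 regions by fold, 7 higher (15.2%) and 3 lower (6.52%) by pileup, and 1 higher and 2 lower by both. Over all regions assigned to genes the median was -1.16 by fold and 0.195 by pileup. Foxo1, a factor that keeps Il7r and homing genes on, fell by 23.6 points by fold (adjusted p = 0.00741) with -1.33 by pileup (adjusted p = 0.857).

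Effector function genes gave 2 higher (7.69%) and 1 lower (3.85%) of 26 regions by fold and 4 higher (15.4%) and 2 lower (7.69%) by pileup. Of their 6 loci none passed by fold, and Ccl5, encoding a chemokine, rose by 13.3 points by pileup (adjusted p = 0.0156, by fold 8.99, adjusted p = 0.151). In the list of glycolysis and nutrient uptake, 4 loci rose (44.4%) and 3 fell (33.3%) of 9 by fold, against 14% and 14.1% over all loci, and by pileup 1 rose and none fell. Mtor (24.5 points, adjusted p = 0.00397) and Hif1a (20.9, adjusted p = 0.0108) rose, and the glycolytic enzyme gene Pfkp (-29.0, adjusted p = 0.00181) and the glucose transporter gene Slc2a1 (-17.6, adjusted p = 0.0232) fell. By pileup their differences were 9.29, 9.51, -7.47 and -1.40, of which none passed (adjusted p = 0.0531, 0.0737, 0.0627 and 0.768). Slc2a1 lost its call by fold without any list except day 4 list 3 (adjusted p = 0.052 to 0.087). Among cell division genes the kinase gene Cdk6 rose by 24.9 points by fold (adjusted p = 0.00464) and differed by 5.45 by pileup (adjusted p = 0.291), and Mcm7, a subunit of the replicative helicase, fell by 14.4 (adjusted p = 0.029, by pileup -5.74, adjusted p = 0.256, and by fold 0.066 to 0.109 without day 4 list 3 or any 1 day 8 list). Of the receptor signal genes, Nfatc1 (-25.6, adjusted p = 0.00265) and Dusp6 (-15.4, adjusted p = 0.011) fell by fold, and their pileup differences were 7.89 and -7.27 (adjusted p = 0.125 and 0.17). Without day 8 list 2 the adjusted p by fold was 0.059 for Dusp6.

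Of the 24 largest single-region changes, 23 lay in or nearest to genes outside these lists, the exception being Xcr1. The lists hold 334 of the 21631 protein-coding genes, so this count does not set listed genes apart from others. The 12 regions with the largest rise and the 12 with the largest fall, 1 per gene and without overlap of the days, were named by rule. Among the rises, Ifi211, an interferon-inducible DNA-sensor family gene, held chr1:173905939-173906509, at 23.3, 24.8 and 1.34 on day 4 and 97.9, 98.8 and 98.6 on day 8. The region moved from the low end of the ranking to its top (difference 82.0 ± 8.12 SE, adjusted p = 0.00285), and its rank by pileup rose by 27.0 (adjusted p = 0.00349). Ankrd44, encoding a subunit of protein phosphatase 6 complexes, held chr1:54660545-54661133, which kept most of its size by pileup: 71.5 ± 7.13 points by fold and 61.9 by pileup, with a mean of 17.0 tags on day 4 and 77.7 on day 8. The other rises were in or nearest to Hacd3, Sgtb, Bglap, Klra1, Dhrs4, Gm5127, Zbtb21, Siah3, Fam20b and Patl2, by 67.7 to 73.3 points by fold. The Dhrs4 region lay 85.8 kb from the gene and the Bglap region 1.15 kb. Klra1 and Gm5127 did not pass by pileup (adjusted p = 0.103 and 0.172). Klra1 belongs to the Ly49 receptor family, whose members are near-identical copies, so reads there may be shared.

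The largest fall was nearest to Tcte2, at chr17:13654545-13655296, 61.1 kb from the gene. It stood at 97.6, 95.0 and 98.2 on day 4 and 18.4, 8.85 and 15.4 on day 8 (difference -82.7 ± 6.98 SE, adjusted p = 0.00285, by pileup -78.3). Its mean pileup went from 47.3 to 30.7 tags, while the median shared region doubled. Near Xcr1, 10.8 kb from the gene, chr9:123872841-123873194 went from 70.2, 88.6 and 76.4 to 6.00, 2.84 and 4.28 (difference -74.0, by pileup -38.1), with 27.7 tags on day 4 and 19 on day 8. The other falls were in or nearest to Aida, Cspg5, D430019H16Rik, Col19a1, Pcnx2, Fbxw4, Nwd1, H2-K1, Zfp213 and Mamdc2, by 61.1 to 75.3 points by fold. Those outside the gene were at Zfp213 and Col19a1 (24.7 kb away each), Cspg5 (18.6 kb), D430019H16Rik (17.5 kb) and Nwd1 (2.93 kb). The exception by pileup was H2-K1, an MHC class I heavy chain gene, which fell by 62.6 points by fold and differed by 0.0264 by pileup (adjusted p = 0.991), with a mean pileup of 200.7 tags on day 4 and 253.7 on day 8.

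**Figure D3:**
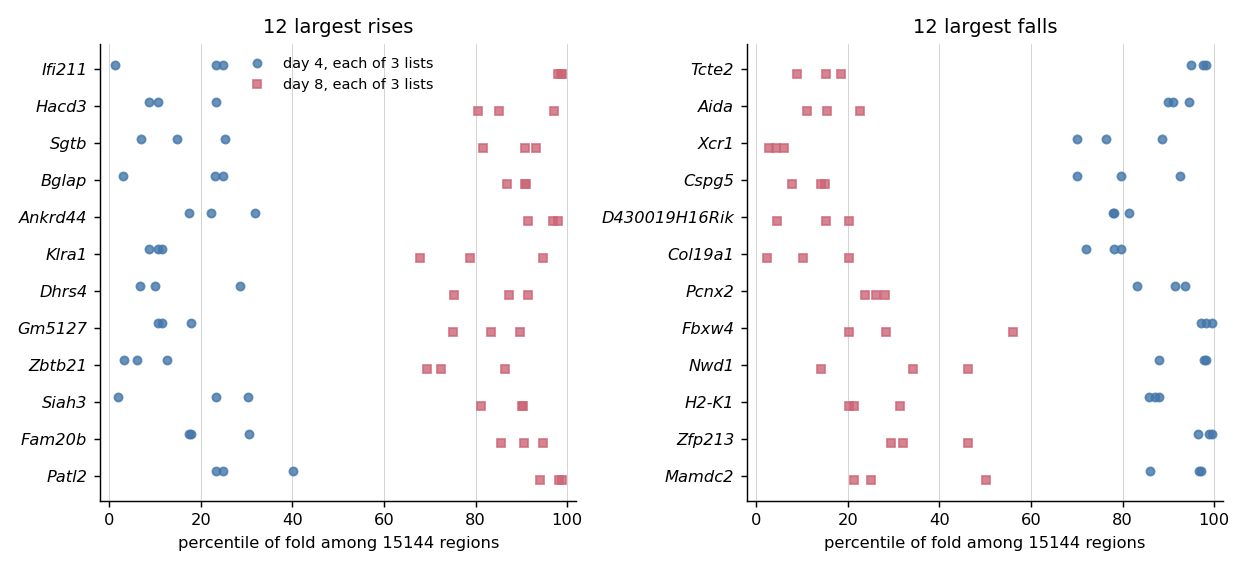
Percentile of fold (x axis) in each list for the 12 regions with the largest rise (left) and the 12 with the largest fall (right). Each is named by the gene it lies in or nearest to, with day 4 lists as circles and day 8 lists as squares. The days are apart at every one by the rule that chose them; Ifi211 goes from at most 24.8 to at least 97.9 and Tcte2 from at least 95.0 to at most 18.4.

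These 12 falls were narrower than most regions, with a median width of 344 bases against 882 over all shared regions, and 11 of 12 had fewer tags on day 8. The 12 rises were narrow as well, with a median width of 565.5 bases, and 0 of them had fewer tags on day 8. Of all 15144 shared regions, 124 had fewer tags on day 8, and 71 of these were among the 391 lower by both rankings. The sources used here do not say how reads that match several places were handled, and its part in these narrow falls was not tested.

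Loci with the largest differences by fold were Dhrs4, Sumf1, Rfng, Bco2, Hunk, Lima1, Rrp1b and Cd40lg among the rises (38.5 to 50.3 points) and Mob3a, Pdcd10, Gsk3b, Ccng2, Asmt, Xcr1, Tmem123 and Aida among the falls (-39.4 to -35.8 points). By pileup, Dhrs4, Rfng, Bco2, Lima1 and Rrp1b also rose and Gsk3b, Asmt and Xcr1 also fell. Gsk3b, a kinase held inactive during receptor and growth factor signalling, went from 83.5, 81.1 and 57.8 to 43.3, 36.8 and 28.8 (difference -37.8 ± 6.89 SE, adjusted p = 0.005, by pileup -16.5, adjusted p = 0.008). Lima1, encoding an actin-binding protein, went from 45.3, 45.4 and 33.6 to 83.8, 70.0 and 89.3 (difference 39.6 ± 5.87 SE, adjusted p = 0.002, by pileup 27.4, adjusted p = 0.001). At Cd40lg, encoding the ligand of CD40, the difference was 38.5 by fold (adjusted p = 0.00519) and -0.0396 by pileup (adjusted p = 0.994).

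After reduction to 19499 peaks a list, the lists merged into 25928 regions, of which 13298 were called in all 6. Gained regions, in 3 of 3 day 8 and 0 of 3 day 4 lists, numbered 868 (3.35%), and lost regions, the reverse, 392 (1.51%). No test goes with such counts. The excess of gains rested on weaker peaks: with 1000, 2500 and 10000 peaks kept, there were 62, 153 and 343 gained and 79, 153 and 289 lost. With 5000 kept, 3.01% of 7332 regions were gained and 2.74% lost. The weakest peak kept had a −log10 q of 1.36 to 4.35 on day 4 and 15.7 to 18.2 on day 8, since 87.6% to 100% of a day 4 list and 38.4% to 41.0% of a day 8 list were kept.

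**Figure D4:**
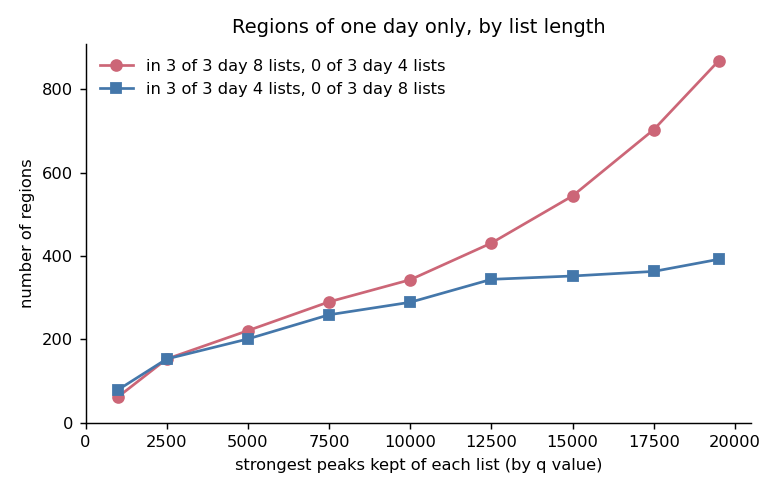
Number of regions found in all lists of one day and none of the other (y axis) by the number of strongest peaks kept of each list (x axis), with gained regions as circles and lost regions as squares. The counts are alike up to 10000 peaks (343 and 289) and part at 19499 peaks (868 and 392).

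In the equalised lists of day 21, 378 gained regions (43.5%) were in all 3 and 152 (17.5%) in none. For lost regions the numbers were 61 (15.6%) and 194 (49.5%), and for the 11370 regions neither gained, lost nor in all 6 lists they were 3267 (28.7%) and 4536 (39.9%). The gained regions with the best ranks lay in or nearest to Aff3, Dip2a, Por, Gm4606, Tatdn1, Slc12a8, Cyp4f16, Abtb2, Car5b and Ksr1. Inside Aff3, which encodes a nuclear protein of the AF4 family, chr1:38557524-38558136 had 53, 63 and 74 tags in the day 8 lists and no peak in a full day 4 list, and it was in all 3 equalised lists of day 21. Nearest to Ksr1, a scaffold of MAP kinase signalling, chr11:79152545-79153162 had 39, 53 and 53 tags on day 8 and no day 4 peak. Of all 868 gained regions, 743 likewise had no peak in a full day 4 list.

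The best-ranked lost regions were in or nearest to Tcte2, Sfi1, Pcnx2, Tmem267, Pisd, Asmt, Dlgap2, Gm40035, LOC100504180 and D430019H16Rik. At Tmem267, chr13:119601798-119602307 had 65, 73 and 84 tags on day 4 and 59, 54 and 52 on day 8. Here every day 8 list was below every day 4 list in tags. Its fold was low for so many tags, at 3.61, 4.06 and 3.84 on day 4, where the median at shared regions was 5.70 to 5.75. The Sfi1 region was alike, with 84, 94 and 94 tags and a fold of 4.10, 4.49 and 3.63 on day 4. The part of reads that match several places in these lost regions was not tested.

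Regions in all 6 equalised lists lay closest to genes, with 55.9% within 1 kb of an end of a protein-coding gene. The share was 15.7% of the gained, 27.3% of the lost and 18.6% of the remaining regions, so the gained regions were near the remaining ones in this respect. The share of the equalised peaks with a summit within 1 kb of a gene end was 46.1%, 46.5% and 44.9% in the day 4 lists and 42.3%, 42.2% and 42.1% in the day 8 lists. The day 8 lists were all lower, by 3.64 points (45.8% ± 0.831 against 42.2% ± 0.141, SD, n = 3 each, two-sided exact permutation test p = 0.1, the smallest this design allows). Among the 10000 strongest peaks the difference was -1.18 points and among the 5000 strongest -1.49 points. Peaks 10 to 50 kb away made up 22.3% ± 0.247 on day 4 and 24.7% ± 0.12 on day 8 (SD, n = 3 each).

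By fold, shared regions within 1 kb of a gene end ranked lower on day 8 by a median of 3.01 points (7997 regions), and those 10 to 50 kb away ranked higher by 3.05 points (3027 regions). By pileup the medians were 0.0594 and 0.347. At 1 to 10 kb they were -0.247 by fold and 1.16 by pileup. Regions over 50 kb away ranked higher by 2.33 points by fold and lower by 1.49 points by pileup, where 5.35% were called higher and 10.1% lower (1476 regions). The order by distance thus differed between the rankings. Regions lower by fold were wider (median 1121 bases) than regions higher by fold (731 bases). Their local background went from 6.41 to 9.89 tags, against 3.48 to 4.25 tags in the higher regions. The part of the local background in the ranks by fold was not tested.

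**Figure D5:**
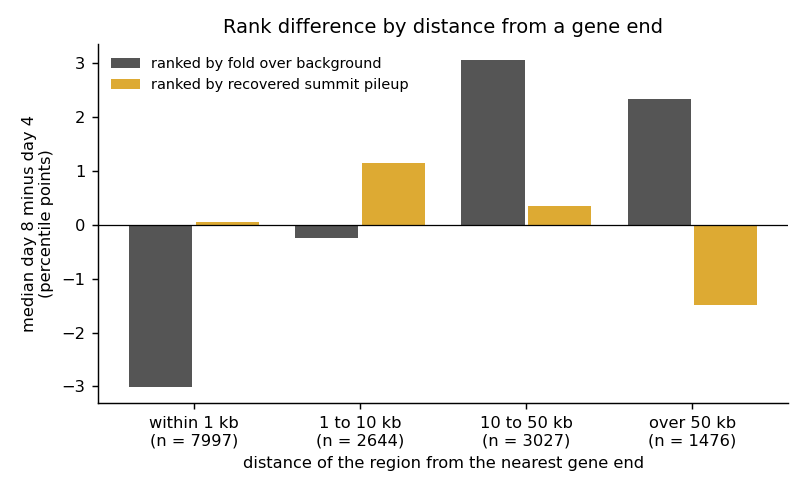
Median difference in percentile, day 8 minus day 4 (y axis, percentile points), for shared regions by distance from the nearest gene end (x axis), ranked by fold (dark bars) and by recovered summit pileup (light bars). Within 1 kb the median is -3.01 by fold and 0.0594 by pileup, and at 10 to 50 kb it is 3.05 and 0.347; over 50 kb it is 2.33 and -1.49.

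The strongest regions were more alike within a day than between days. Of the 1000 top-ranked shared regions of a list, 640 to 651 were also in the top 1000 of another day 4 list, 671 to 686 within day 8, and 449 to 474 between the days. Summits moved little: the median distance between the summits of a shared region was 26 to 28 bases between day 4 lists, 13 to 14 bases between day 8 lists and 25 to 28 bases between the days. The spread of summit pileups, as a chi-square per region, was 0.417 to 0.444 in the 6 same-day pairs of lists and 1.06 to 1.15 between days. Independent Poisson counts give 1 on average. A summit pileup is the highest value in its region, so that average need not hold for it. Same-day summits fell on the same base at 3.45% to 5.61% of shared regions, so the lists are not copies of each other. Whether same-day lists are independent samples was not tested, and the p-values rest on their spread.

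The labelled cell type was checked against markers in the equalised lists. All 10 CD8 T cell markers had a peak in every day 4 list, and 9 of 10 in every day 8 list. Of 10 B cell genes, 0 had a peak in all day 4 lists and 1 in all day 8 lists, and Cd79a, Cd79b, Ms4a1, Fcrla and Vpreb3 had none in any list. Of 15 myeloid and dendritic cell genes 7 had a peak in all lists of each day, with 16 regions in each day 4 list and 17 to 19 on day 8, while Adgre1, Cd14, Csf1r, Lyz2, Elane, Mpo and Siglech had none. Of 8 melanocyte genes 2 had a peak in all day 4 and 3 in all day 8 lists, and Dct, Mc1r, Sox10, Tyr and Tyrp1 had none. NK cell genes had 13 to 17 regions on day 4 and 12 to 13 on day 8. CD4 and regulatory T cell genes had 15 to 16 and 16 to 19, with Foxp3 in no list. Endothelial and stromal genes had 5, 3 and 5 regions on day 4 and 8, 7 and 7 on day 8, without overlap. Of these 13 genes, 2 were in all day 4 and 3 in all day 8 lists, and 9 in no list, Cdh5 and Col3a1 among them. Regions assigned to all genes also rose in number without overlap, from 17695, 17525 and 17931 to 18784, 18807 and 18839. The part of other cells in the differences above was not tested.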

How the data were processed

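The ATAC-seq peaks of 3 day 4 and 3 day 8 lists of sorted P14 cells were compared, grouped by sample title because the tags for time point and genotype hold each other's values. Per the submitters' processing notes, the tools were MACS2, Picard, deepTools 2.0 and BWA 0.7.15, and the build was mm10. The sources used here do not give their roles, the read filters or any Tn5 shift. The authors deposited 1 narrowPeak list per library, so peaks were called per sample. Each deposited peak has a score, a fold at the summit over the local background, −log10 p-value and −log10 q-value columns, all the peak caller's own values, used here only to describe and rank peaks within a list.

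The 6 lists hold 208036 peaks on chromosomes 1 to 19 and X, and no other chromosome was used. Lists were merged wherever peaks shared at least 1 base. A whole summit pileup was recovered from fold and p under the MACS2 Poisson formula for at least 99.995% of the peaks of each list (tolerance 0.001 in −log10 p). Read totals are not in the lists, and the smallest local background, which stands for depth, was 2.62 to 3.38 tags on day 4 and 2.14 to 2.63 on day 8. Percentile ranks of fold, with the highest value per region, were fitted in R 4.3.3 by limma 3.58.1 with its trend and robust options, with Benjamini-Hochberg adjustment over all regions or all loci and a threshold of 0.05. The fit was tested on simulated data. Shares were compared by exact permutation over all 20 arrangements. Other steps ran in Python 3.11.15 with numpy 2.4.6, pandas 2.3.3, matplotlib 3.10.9 and scipy 1.17.1.

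The RefSeq gene table (GRCm38.p6, the mm10 assembly) holds 21631 protein-coding genes without strand. Transcription starts come from a RefSeq promoter table that held 17274 genes, so distances refer to either end of a gene, with starts as an alternative. Of 336 listed symbols, 334 matched. Genes were named by these rules: the 12 highest and 12 lowest called shared regions without overlap of the days, the 8 highest and 8 lowest called loci, the 10 gained and 10 lost regions of best rank, every core gene, and the 2 highest and 2 lowest loci of each list (the text gives those that bear on a comparison, and a few listed genes are not reported here). Members and lists were chosen with earlier results of these data known, and genes named as called by both rankings were chosen after their values were seen.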

Additional observations from a re-analysis of the deposited data

How the results depend on the processing

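Counts of calls moved with the ranked value, the spread estimate less so. Ranked by −log10 q, 767 shared regions were higher and 666 lower, the same numbers as by −log10 p, and by recovered pileup 926 and 919. Among loci, −log10 q gave 276 higher and 240 lower, pileup gave 281 lower, and at least 3 regions per locus, which leaves fewer genes to test, gave 167 and 197. Gained and lost regions are compared as a share of all merged regions, a measure chosen after the counts were seen (3.35% and 1.51% at full length). Gained regions were 6.01% when the strongest peaks were taken by fold and 7.01% when at least 2 of 3 lists sufficed, and lost regions 5.22% and 4.55%, with 2.35% in summit windows and 2.74% of 7332 regions with 5000 peaks kept. The counts moved otherwise when fewer peaks were kept: gained regions fell from 868 to 343 with 10000 and 221 with 5000 peaks, and lost regions fell from 392 to 289 with 10000 and further with 5000, while the lost share rose to 2.14% and 2.74%. The difference in the share of peaks near a gene end was -1.18 with 10000 and -1.49 with 5000 peaks, an alternative chosen after seeing the data. By pileup, also chosen after seeing the data for distances and loci, the median rank difference was 0.0594 within 1 kb of a gene end and 0.347 at 10 to 50 kb. The cause of these shifts was not tested.

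Leaving out 1 list at a time gave 4.505% to 5.04% gained and 1.957% to 2.70% lost regions, in counts 1134 to 1271 and 498 to 678 (fewer lists then have to hold a region), 656 to 1409 shared regions higher and 698 to 1540 lower, and 185 to 392 loci higher and 190 to 433 lower. The lost regions were 678, 650 and 632 without day 4 lists 1, 2 and 3. The loci without day 8 lists 1, 2 and 3 were 246, 208 and 185 higher and 243, 211 and 190 lower. The share near a gene end ranged from -4.10 to -3.31, the median rank difference from -3.32 to -2.91 within 1 kb and from 2.88 to 3.37 at 10 to 50 kb, and the summit distance between minus within days from 0.5 to 13 bases. Same-numbered lists of both days did not deviate together (correlations -0.00038, 0.00339 and 0.0139). Deviations of single regions hold counting noise, so this does not settle whether the numbers pair lists. With the replicate block 1380 regions were higher and 1433 lower, and 403 and 416 loci. Of the named results it ended 2 calls, at the Stat5b locus (adjusted p = 0.071) and the Ctla4 region (0.0586), and made 1, at Ptpn6 (0.0459).

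Some named results changed sign with the ranked value. The H2-K1 region was at 0.0044 by −log10 q and by −log10 p and at 0.0264 by pileup. By pileup the regions at Tcf7, Id2 and Entpd1 were at 1.36, 3.25 and -1.59. The loci Cd40lg, Hunk, Klrb1c, Mob3a, Nfatc1 and Tgfbr1 were at -0.0396, -0.432, 1.17, 1.77, 7.89 and 1.22. Pdcd1, Tcf7 and Il12rb2 passed the threshold by pileup, at -15.7, 12.8 and -11.5 points. Of the 150 named regions and loci, 24 lost their call by pileup in the same direction, besides the 13 given above that changed sign by pileup. The 150 include results with no call by fold, which could not lose one. The median pileup at shared regions was 29 to 35 tags on day 4 and 61 to 70 on day 8, so day 4 ranks rest on smaller counts, although the smallest local background was not lower on day 4 (2.62 to 3.38 against 2.14 to 2.63 tags).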

Other observations

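Some listed loci not described above differed by pileup and not by fold. Gata3, a factor of helper T cells, fell by 18.9 points by pileup (adjusted p = 0.00584) and differed by -6.68 by fold (adjusted p = 0.104). Klrk1, encoding the receptor NKG2D, fell by 14.7 by pileup (adjusted p = 0.00829, by fold -5.37, adjusted p = 0.456), and Ikzf2, encoding Helios, by 14.7 (adjusted p = 0.0125, by fold -11.8, adjusted p = 0.082). Ptpn6, encoding the phosphatase SHP-1, rose by 17.1 by pileup (adjusted p = 0.0325, by fold 13.8, adjusted p = 0.0657). Without day 4 list 2 Ptpn6 passed by fold too (adjusted p = 0.016), as Gata3 did without day 4 list 3 (adjusted p = 0.048).

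Other members of the list of AP-1 and bZIP factors passed by fold alone. Fosb and Crem fell by fold by 15.7 and 16.0 points (adjusted p = 0.0111 and 0.0153) with pileup differences of -6.10 and -1.02 (adjusted p = 0.229 and 0.79). Without day 8 list 3 the adjusted p by fold was 0.052 for Fosb and 0.067 for Crem, without day 8 list 1 it was 0.055 for Fosb and without day 8 list 2 it was 0.055 for Crem.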
